A study of Mus musculus with 3 samples.

Results

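Chrm3, Chrm1, Adrb1, Adra1a, Adra1b, Vipr1, Vipr2 and Tacr1 encode 8 of the cell surface receptors through which nerves drive fluid and protein secretion in salivary glands, out of 32285 genes counted. They were picked out by symbol, by a rule that uses no measured value but was written with earlier results of these data known, and all 8 were listed in each of the 3 libraries. The study measured RNA in single nuclei from frozen submandibular glands of wild-type mice, 1 library per group. The first group was not irradiated and received no treatment. The second was irradiated and given saline. The third was irradiated and given pilocarpine, a muscarinic agonist, from day 30 to day 90 after irradiation. The sample titles place both irradiated groups at day 90 and the protocol places them at day 93. The question posed by the series title is whether muscarinic agonism restores the degenerated gland, and the receptors described here are those that such an agonist, or the other nerve signals of the gland, would act on. Radiation dose, pilocarpine dose, age and the number of mice behind each library are not given in the sources used here. Because the non-irradiated mice had no saline, irradiation and saline cannot be told apart. With 1 library per group no difference between groups has a replicate check, and intervals below cover counting error only.

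Salivary secretion is run by autonomic nerves. Acetylcholine from parasympathetic fibres acts on muscarinic receptors, of which M3 (Chrm3) and M1 (Chrm1) couple to Gq, phospholipase C and calcium release and drive fluid secretion. Noradrenaline from sympathetic fibres acts on the beta-1 receptor (Adrb1), which couples to Gs and cyclic AMP and drives release of stored protein, and on the alpha-1 receptors (Adra1a, Adra1b), which couple to Gq like M3. Vasoactive intestinal peptide acts on VPAC1 (Vipr1) and VPAC2 (Vipr2), which couple to Gs, and substance P acts on NK1 (Tacr1), which couples to Gq.

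The genes lie apart in the mouse genome (GRCm38, positions from GENCODE vM21). Chrm3 occupies chr13:9875486-10360847 on the minus strand, a span of 485 kb, and 4 other annotated genes share that strand within it. Adrb1 occupies chr19:56722199-56733113 on the plus strand, a span of 10.9 kb with no overlapping gene. Adra1a lies at chr14:66635251-66771168 and Chrm1 at chr19:8663789-8683587, both on the plus strand. Adra1b lies at chr11:43774606-43901210 on the minus strand. Vipr1 lies at chr9:121642716-121672954, Vipr2 at chr12:116077726-116146261 and Tacr1 at chr6:82402334-82560104, all on the plus strand. The spans differ widely and the counts are not scaled to length, so levels are compared below between libraries and nucleus classes for 1 gene at a time, never between genes.

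The 3 libraries held 10635, 8622 and 8376 nuclei after filtering (non-irradiated, saline and pilocarpine, the order kept throughout), with median depths of 1536, 2113 and 2048 UMIs. A UMI is 1 counted RNA molecule. Clustering gave 22 clusters, of which 16 were named from marker genes into 11 classes and 6 stayed unnamed. Acinar-like nuclei, the secretory cells, made up 58.7%, 40.7% and 55.6% of nuclei. They came mainly from clusters 0 and 2 in the non-irradiated library and from clusters 1, 4 and 6 in the irradiated ones. Of the 9 acinar markers 8 were detected in every library and Smr3a was at 0. Acinar secretory transcripts were also found outside the acinar class: Mucl2, an acinar secretory product, stood in T or NK-like nuclei at 85.7%, 56.9% and 87.2% of its acinar-like level. For the main levels of Chrm3, Adrb1 and Adra1a outside their highest class, the level of such products is given beside them. Levels are CPM, the UMIs of a gene per 1000000 UMIs of all nuclei of that class in that library. A ratio between libraries was called when it was at least 1.5-fold in either direction, rested on at least 50 UMIs and had a 95% counting interval that left out 1.

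Chrm3, the M3 receptor that pilocarpine acts on, was the member with the most UMIs, and its level in acinar-like nuclei was nearly the same in the 3 libraries. Acinar-like nuclei held 3960 CPM in the non-irradiated library (95% Poisson interval 3923 to 3997, 44422 UMIs), 3790 after saline (3754 to 3827) and 3680 after pilocarpine (3647 to 3714). The 3 intervals did not overlap, yet the values lay close together. The saline level was 0.957 times the non-irradiated one (interval 0.944 to 0.970), and the pilocarpine level was 0.971 times the saline one (0.958 to 0.984). At least 1 Chrm3 UMI was found in 97.5%, 98.4% and 97.9% of acinar-like nuclei, at median depths of 1499.5, 2502 and 2197 UMIs. After every nucleus was thinned to 800 UMIs the shares were 93.9%, 92.2% and 92.5%. In T or NK-like nuclei, lymphocytes taken here as a reference class, the unthinned shares were 73.7%, 49.4% and 62.5% at median depths of 1050.5, 1514 and 1603.5 UMIs. The acinar-like share stood above that of the reference class in every library.

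The spread of Chrm3 among acinar-like nuclei was narrow. In thinned nuclei the mean was 3.10, 2.89 and 2.78 UMIs and the variance was 1.19, 1.26 and 1.17 times the mean, near the value of 1 that random sampling of equal nuclei gives. Myoepithelial-like nuclei, contractile cells that squeeze the acini, had means of 2.48, 2.16 and 2.06 UMIs and a variance 1.69, 1.85 and 1.78 times the mean. Ionocyte-like nuclei had the widest spread of the 4 classes measured this way, at 1.73, 2.02 and 1.93 times the mean. Their Chrm3 level was 2438, 1930 and 2595 CPM. Reclustering without the 8% of nuclei with the highest doublet scores changed their log2 ratios. Saline to non-irradiated went from -0.34 to -1.69, and pilocarpine to saline from 0.43 to 2.45. The part of doublets in the ionocyte-like spread was not tested. In acinar-like nuclei the Chrm3 level also varied little among the 6 clusters. The saline level was below the non-irradiated one in 6 of 6 clusters, at 0.910 to 0.947 times it.

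**Figure D1:**
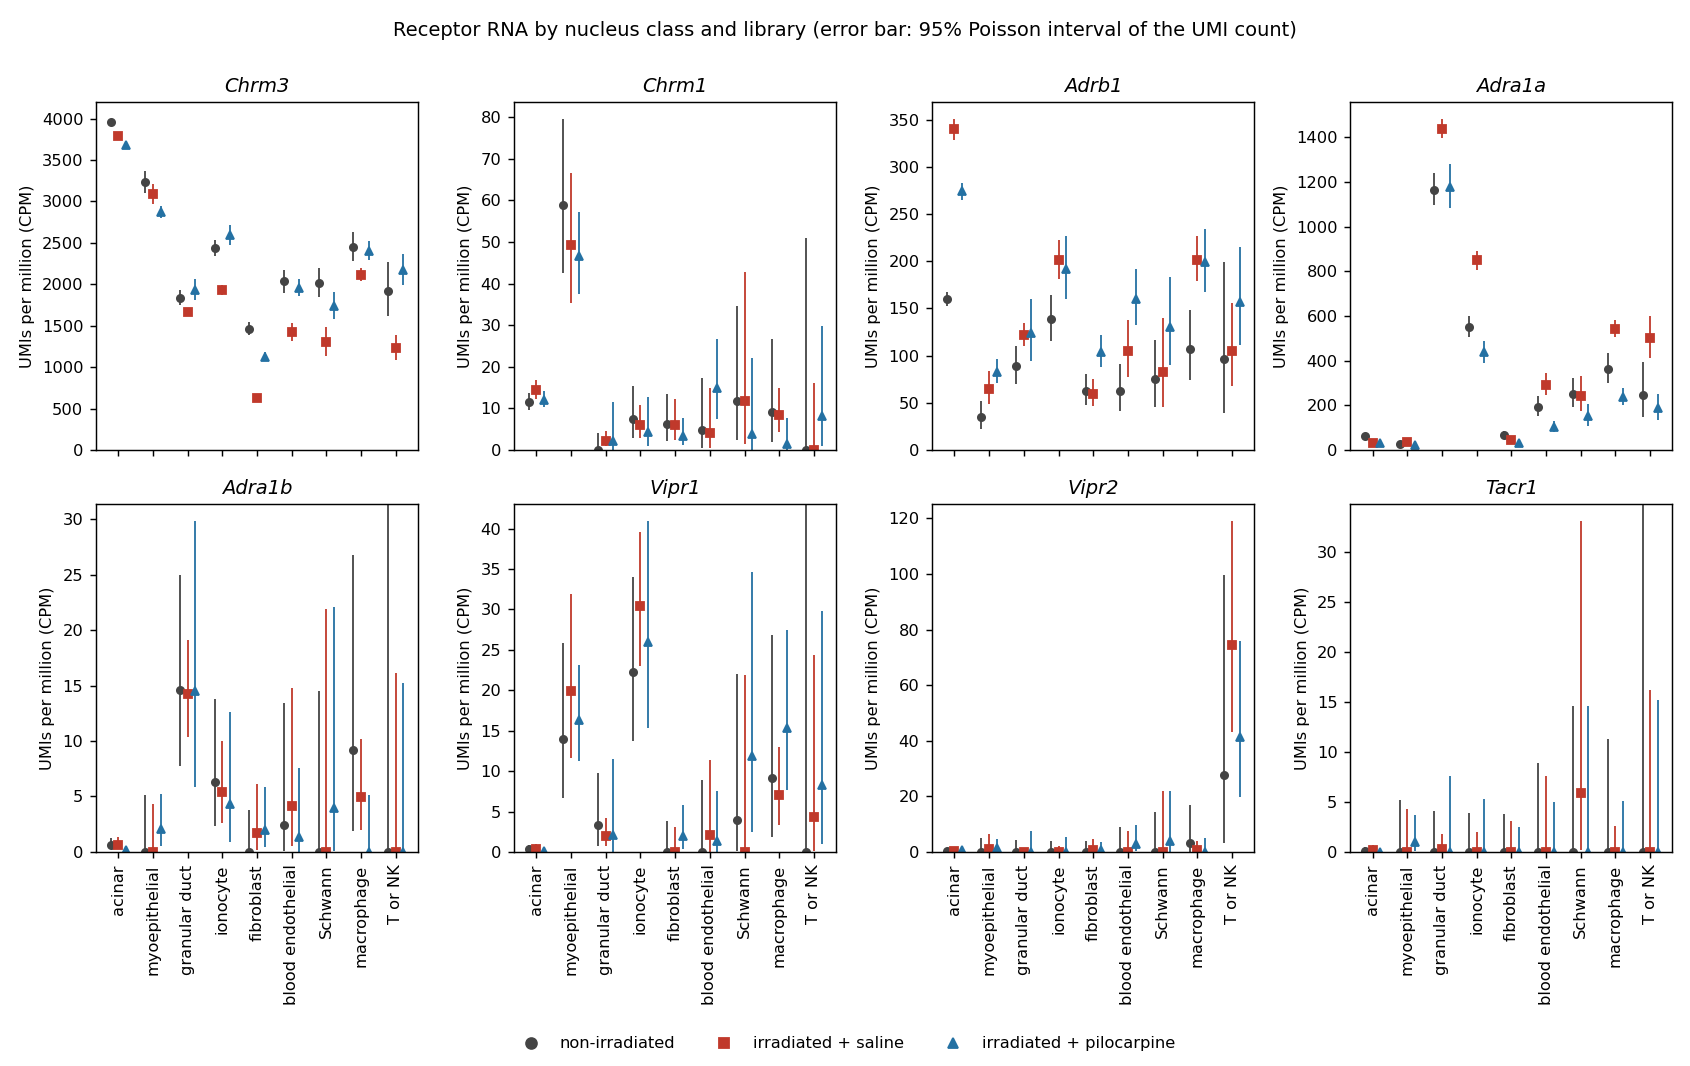
Level of each receptor (CPM, linear axis) in the 9 named classes with at least 30 nuclei in every library, 1 point per library with its 95% Poisson interval (some intervals over small classes run past the axis). Chrm3 and Adrb1 were highest in acinar-like nuclei, Chrm1 in myoepithelial-like, Adra1a and Adra1b in granular duct-like, Vipr1 in ionocyte-like and Vipr2 in T or NK-like nuclei.

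Outside the acini, Chrm3 was second highest in myoepithelial-like nuclei in every library. Its level there was 3238, 3087 and 2871 CPM, or 81.8%, 81.5% and 78.0% of the acinar-like level. Acinar products stood lower in the same nuclei: Mucl2 at 64.1%, 48.0% and 72.5%, and Prol1, a secreted proline-rich protein, at 34.3%, 17.7% and 31.5%. Without the 8% of nuclei with the highest doublet scores in each library, a setting chosen after seeing the data, the myoepithelial-like level was 3319, 3049 and 2684 CPM, nearly as before. Granular duct-like nuclei, the duct cells that store growth factors and kallikreins, held 1834, 1669 and 1934 CPM of Chrm3. That was 46.3%, 44.0% and 52.6% of the acinar-like level, above Prol1 at 32.1%, 10.9% and 27.9% and above Oit1, another acinar-enriched transcript, at 20.6%, 6.87% and 12.4%. Mucl2 did not keep that order, at 69.5%, 30.6% and 111%. T or NK-like nuclei, the reference class, held 1917, 1230 and 2176 CPM of Chrm3, so granular duct-like nuclei stood above them only after saline. Macrophage-like nuclei, at 2451, 2116 and 2401 CPM, stood above granular duct-like nuclei in every library. The part of acinar RNA in the granular duct-like level was not tested.

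Fibroblast-like nuclei had the lowest Chrm3 level of the 9 classes in all 3 libraries, and the largest difference between libraries among the 5 classes compared. The level was 1462, 623 and 1126 CPM. Saline was 0.426 times non-irradiated (0.389 to 0.466), and pilocarpine was 1.81 times saline (1.66 to 1.97). The acinar products moved the same way in these nuclei. Oit1 there was 0.308 times non-irradiated after saline and Prol1 was 0.534 times, and after pilocarpine they were 2.12 and 1.97 times the saline level. As a share of the acinar-like level, Chrm3 in fibroblast-like nuclei stood at 36.9%, 16.4% and 30.6% and Oit1 at 38.7%, 17.7% and 34.5%. In each library Chrm3 here was no higher than that acinar product. The part of acinar RNA in the fibroblast-like level was not tested. Without the nuclei of highest doublet score it stood at 836, 230 and 345 CPM. Reclustered without those nuclei, the ratio of pilocarpine to saline was 0.55 on the log2 scale, under 1.5-fold.

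Chrm1, the M1 receptor, was a sparse transcript with a different place. Its level in myoepithelial-like nuclei was 58.9 CPM in the non-irradiated library (42.5 to 79.6, 42 UMIs), 49.2 after saline (35.5 to 66.5, 42 UMIs) and 46.5 after pilocarpine (37.5 to 57.1, 91 UMIs). The 3 intervals overlapped. Acinar-like nuclei held 11.5, 14.4 and 12.1 CPM, also with overlapping intervals. Schwann-like nuclei stood at 11.8, 11.9 and 3.96 CPM and blood endothelial-like nuclei at 4.81, 4.10 and 14.9 CPM, both small classes. The acinar-like level was thus not above every class outside the epithelium. Granular duct-like nuclei had 0, 7 and 1 UMIs, and the count of 0 in the non-irradiated library allows up to 3.36 CPM. The difference between myoepithelial-like and acinar-like nuclei was larger than the counting error in each library. Acta2 and Krt14, structural genes of myoepithelial cells, stood in acinar-like nuclei at 0.192% to 0.870% of their myoepithelial-like level, while Chrm1 stood at 19.5%, 29.3% and 26.0%. A Chrm1 UMI was seen in 10.5%, 10.5% and 10.3% of myoepithelial-like nuclei, against 0%, 0% and 2.08% of the 38, 89 and 96 T or NK-like nuclei. Thinned to 800 UMIs the myoepithelial-like shares were 6.52%, 3.79% and 4.47%.

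Adrb1, the beta-1 receptor, was the member with a higher acinar-like level in both irradiated libraries. It stood at 160 CPM in the non-irradiated library (153 to 168, 1799 UMIs), 340 after saline (329 to 351, 3697 UMIs) and 274 after pilocarpine (265 to 283, 3424 UMIs). No interval overlapped another. The saline level was 2.12 times the non-irradiated one (2.0 to 2.24), a ratio that 1.71% of the 11916 genes tested in these nuclei reached or exceeded. The pilocarpine level was 1.71 times the non-irradiated one (1.61 to 1.81) and 0.807 times the saline one (0.770 to 0.845), so it lay between the other libraries and nearer to saline. The last difference exceeded counting error and was under 1.5-fold.

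The same order was found within every acinar-like cluster. Saline was 1.82 to 2.20 times non-irradiated in 6 of 6 clusters, pilocarpine was 1.51 to 1.92 times non-irradiated in 6 of 6, and pilocarpine was 0.748 to 0.888 times saline in 6 of 6. In cluster 0, which held 3147 of the non-irradiated nuclei but 127 of the saline ones, Adrb1 stood at 157, 339 and 262 CPM. In cluster 1, which held 1702 of the saline nuclei but 98 of the non-irradiated ones, it stood at 158, 336 and 280 CPM. The non-irradiated value there rested on 56 UMIs (119 to 205 CPM). In cluster 6 it rested on 98 nuclei and 17 UMIs (89.3 to 245 CPM). The levels thus changed little from cluster to cluster within 1 library. Cluster 14, led by interferon-response genes such as Rsad2 and Cmpk2, had 175, 317 and 263 CPM. Cluster 15, an unnamed group led by cell division genes such as Top2a, had 152, 273 and 264 CPM.

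**Figure D2:**
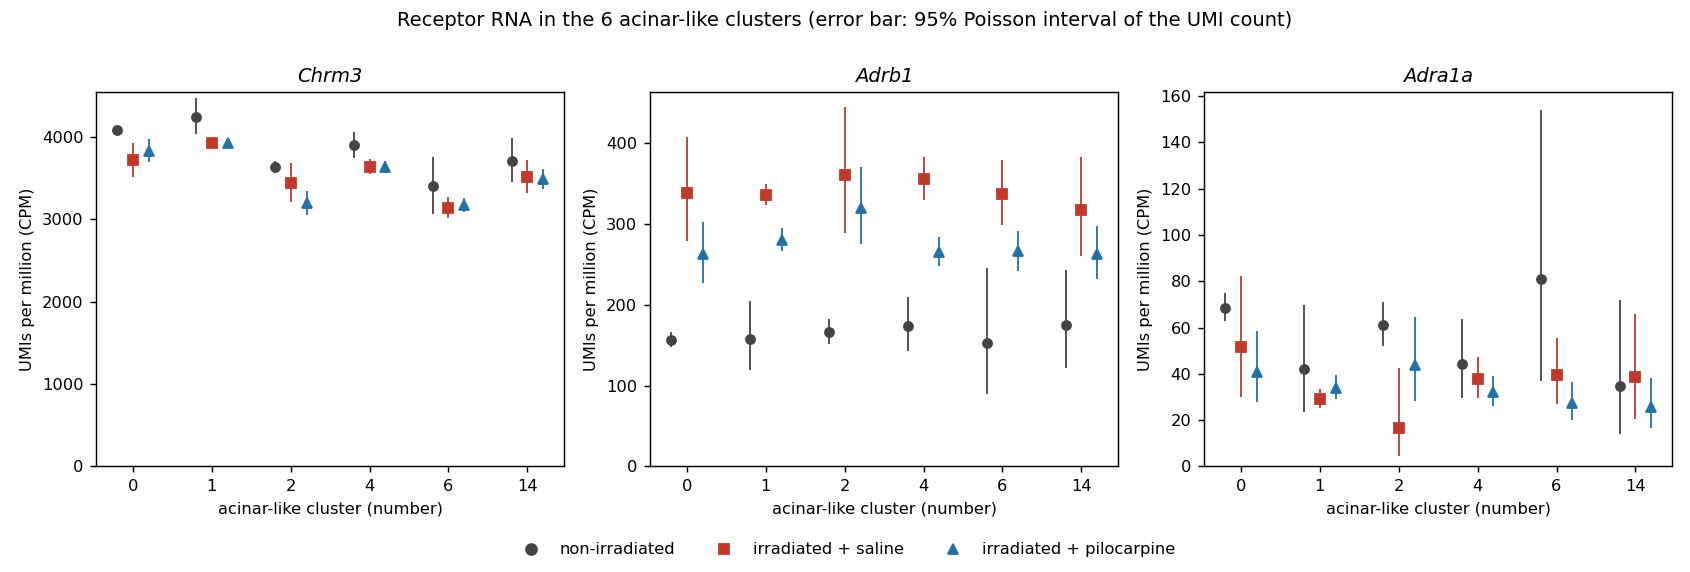
Level (CPM, linear axis from 0) of Chrm3, Adrb1 and Adra1a in the 6 acinar-like clusters, 1 point per library with its 95% Poisson interval. Adrb1 was lowest in the non-irradiated library and highest after saline in each cluster, while Chrm3 lay within 3143 to 4249 CPM throughout.

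More nuclei held an Adrb1 UMI where the level was higher. The share of acinar-like nuclei was 23.2%, 54.8% and 44.4%, and in thinned nuclei 11.7%, 23.2% and 18.6%. Unthinned T or NK-like nuclei held a UMI in 15.8%, 14.6% and 21.9%, at median depths of 1050.5, 1514 and 1603.5 UMIs. These shares are to be set beside the unthinned acinar-like ones. Within acinar-like nuclei the thinned counts had a variance 1.07, 1.06 and 1.03 times the mean. At means of 0.128, 0.272 and 0.209 UMIs this measure responds little to differences between nuclei. It therefore cannot tell whether a subset had high Adrb1. Chrm3 and Adrb1 UMIs were found together in 11.0%, 21.5% and 17.2% of thinned acinar-like nuclei. Independent detection of both would give 11.0%, 21.4% and 17.2%.

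The 250 bases before the RefSeq start of Adrb1 are shown because it was the member called higher in acinar-like nuclei in both irradiated libraries (chr19:56721867-56722116, plus strand, RefSeq on GRCm38.p6). Capitals mark TGACG, the core of the cyclic AMP response element, searched on both strands as TGACG and CGTCA.
Adrb1: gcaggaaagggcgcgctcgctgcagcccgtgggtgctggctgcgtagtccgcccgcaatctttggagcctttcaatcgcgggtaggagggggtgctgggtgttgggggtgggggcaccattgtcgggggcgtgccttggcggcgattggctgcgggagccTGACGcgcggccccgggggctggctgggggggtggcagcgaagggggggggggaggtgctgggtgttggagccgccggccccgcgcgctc
The core occurs 1 time, and 17.8% of the 32851 annotated windows of this length hold it. The windows of Vipr1 and Tacr1 also hold it 1 time each, and those of Chrm3, Adra1b and Vipr2 do not hold it. The full element TGACGTCA is not in the Adrb1 window. GC content of the Adrb1 window is 74.0%. A match of letters is a description and not a binding site.

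Outside the acini, Adrb1 stood at 139, 201 and 192 CPM in ionocyte-like nuclei and at 88.6, 122 and 124 CPM in granular duct-like nuclei. In ionocyte-like nuclei this was 86.5%, 59.2% and 69.9% of the acinar-like level, with Prol1 there at 56.5%, 40.4% and 68.6%. After thinning, the log2 ratio of saline to non-irradiated in ionocyte-like nuclei turned from 0.54 to -0.24 and that of pilocarpine to saline from -0.07 to 0.34, and in the non-irradiated library the thinned level was higher in ionocyte-like than in acinar-like nuclei. In granular duct-like nuclei the shares were 55.2%, 35.9% and 45.3%, with Prol1 at 32.1%, 10.9% and 27.9%. In macrophage-like nuclei it stood at 107, 202 and 199 CPM, or 66.7%, 59.3% and 72.7% of the acinar-like level, with Prol1 at 57.2%, 41.8% and 55.5%. Myoepithelial-like nuclei held 35.1, 64.4 and 82.8 CPM, so the 2 irradiated libraries were above the non-irradiated one. Saline was 1.84 times non-irradiated there (1.13 to 3.08) and pilocarpine 2.36 times (1.54 to 3.76). As a share of the acinar-like level this was 21.9%, 19.0% and 30.2%, close to Prol1 at 34.3%, 17.7% and 31.5%, and without the nuclei of highest doublet score the level was 19.996, 52.4 and 38.2 CPM. With each library clustered alone the log2 ratio of saline to non-irradiated was 0.41, under 1.5-fold. The part of acinar RNA in these nuclei was not tested.

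Adra1a, the alpha-1A receptor, was highest in duct nuclei. Granular duct-like nuclei held 1165 CPM in the non-irradiated library (1095 to 1238), 1439 after saline (1397 to 1482) and 1177 after pilocarpine (1082 to 1278). Saline lay above both other libraries, whose intervals overlapped each other. The saline level was 1.24 times the non-irradiated one (1.15 to 1.32) and the pilocarpine level 0.818 times the saline one (0.748 to 0.893), both under 1.5-fold. A UMI was found in 69.0%, 79.0% and 69.6% of granular duct-like nuclei, at median depths of 1214, 1566.5 and 1242.5 UMIs, and in 55.4%, 62.9% and 52.8% after thinning. Unthinned T or NK-like nuclei held a UMI in 15.8%, 23.6% and 19.8% and stood at 248, 499 and 186 CPM. Growth factor and kallikrein products differed more than the receptor in the same nuclei: Egf was 1.44 times non-irradiated after saline and Klk1b22 was 1.82 times. With each library clustered alone, the Adra1a ratio of pilocarpine to saline was -1.39 on the log2 scale, so this comparison depends on which nuclei form the class.

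Ionocyte-like nuclei, duct cells rich in proton pumps and the chloride channel Cftr, were second for Adra1a. Their level was 551 CPM (505 to 601), 849 (807 to 892) and 436 (389 to 488). Saline was highest and pilocarpine lowest, with no overlap. Saline was 1.54 times non-irradiated (1.39 to 1.70) and pilocarpine 0.514 times saline (0.453 to 0.582). Granular duct products moved the same way there. Egf in ionocyte-like nuclei was 1.90 times non-irradiated after saline and then 0.321 times saline after pilocarpine, and Klk1b22 was 3.65 and 0.301 times. Adra1a stood at 47.3%, 59.0% and 37.1% of its granular duct-like level, above Egf at 24.5%, 32.4% and 18.8%. The part of granular duct RNA in this difference was not tested. After thinning, the log2 ratio of saline to non-irradiated was 0.48, and reclustered without the highest doublet scores 0.39, both under 1.5-fold. With the class kept as it was and only those nuclei left out, the level was 614, 977 and 435 CPM. The unnamed cluster 9, led by the sodium channel gene Scnn1b and by Wnt4, held 443, 634 and 252 CPM. Saline was also highest and pilocarpine lowest in some classes outside the epithelium. Macrophage-like nuclei held 364, 542 and 237 CPM, T or NK-like nuclei 248, 499 and 186, and blood endothelial-like nuclei 192, 293 and 104. Schwann-like nuclei, at 252, 244 and 150 CPM, and fibroblast-like nuclei, at 68.1, 42.4 and 32.1 CPM, did not show this order. Granular duct-like nuclei made up 6.10%, 19.0% and 4.01% of all nuclei.

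In acinar-like nuclei Adra1a stood at 64.1 CPM (59.5 to 69.0), 32.1 (28.8 to 35.6) and 32.9 (29.8 to 36.2). Non-irradiated lay above both irradiated libraries, which overlapped. Saline was 0.50 times non-irradiated (0.439 to 0.570) and pilocarpine 0.513 times (0.454 to 0.580). These levels were 5.50%, 2.23% and 2.80% of the granular duct-like ones, at or below those of Egf (6.92%, 4.10% and 7.08%) and Klk1b22 (11.5%, 6.52% and 8.11%). The part of granular duct RNA in the acinar-like level was not tested. Egf in acinar-like nuclei was 0.852 times and Klk1b22 1.03 times non-irradiated after saline, so these products did not show the same ratio. Myoepithelial-like nuclei held 26.6, 36.3 and 21.0 CPM of Adra1a, below acinar-like nuclei in the non-irradiated library. Within clusters the Adra1a ratio of saline to non-irradiated ran from 0.272 to 1.10 and was below 1 in 5 of 6. The lowest ratio rested on 4 saline UMIs in cluster 2. The highest rested on 13 saline and 7 non-irradiated UMIs in cluster 14.

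Adra1b, the alpha-1B receptor, gave 224 UMIs in all. Granular duct-like nuclei held 14.6 CPM (7.76 to 24.9, 13 UMIs), 14.3 (10.4 to 19.1, 44 UMIs) and 14.5 (5.82 to 29.8, 7 UMIs), values that did not differ beyond counting error. Ionocyte-like nuclei were at 6.35, 5.44 and 4.32 CPM and acinar-like nuclei at 0.624, 0.643 and 0.160 CPM. Its place was thus like that of Adra1a. The intervals of granular duct-like and acinar-like nuclei did not overlap in any library.

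Among the peptide receptors, Vipr1 (VPAC1) was highest in ionocyte-like nuclei among the 9 classes and low in acinar-like nuclei. Ionocyte-like nuclei held 22.2 CPM (13.8 to 34.0, 21 UMIs), 30.5 (23.0 to 39.5, 56 UMIs) and 25.9 (15.4 to 41.0, 18 UMIs). Myoepithelial-like nuclei held 14.0, 19.9 and 16.4 CPM with intervals that overlapped those of ionocyte-like nuclei. The unnamed cluster 13, led by the sodium-proton exchanger Slc9a3 with Dclk1 and Wnt5b, stood at 44.7, 49.8 and 42.3 CPM (13, 33 and 31 UMIs). Macrophage-like nuclei came next among the 9 classes, at 9.17, 7.07 and 15.3 CPM (3, 10 and 11 UMIs), above granular duct-like nuclei at 3.36, 1.94 and 2.07 CPM. The libraries did not differ beyond counting error in any of these groups. Acinar-like nuclei had 4, 4 and 1 UMIs of Vipr1, at most 0.368 CPM.

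Vipr2 (VPAC2) gave 90 UMIs in all, 29 of them in T or NK-like nuclei. Its level there was 27.6 CPM (2 UMIs), 74.4 (17 UMIs) and 41.3 (10 UMIs), with overlapping intervals of 3.34 to 99.6, 43.3 to 119 and 19.8 to 75.9. It was at 0 in granular duct-like and ionocyte-like nuclei of every library, which allows up to 0.972 CPM in the deepest of these groups and up to 6.21 CPM in the shallowest. Tacr1 (NK1) gave 15 UMIs in all, of which 3 were in acinar-like nuclei. The count of 0 in acinar-like nuclei after pilocarpine allows up to 0.240 CPM. Differences in Tacr1 were not detectable at this depth.

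Counted over the members, 2 of the 4 with at least 50 UMIs in acinar-like nuclei passed the 1.5-fold rule after saline against non-irradiated, Adrb1 higher and Adra1a lower. Among all genes tested there 5.63% were called higher and 5.51% lower. Pilocarpine against saline gave 0 of 4, with 2.35% of all genes higher and 1.71% lower. Pilocarpine against non-irradiated gave the same genes as saline, Adrb1 higher and Adra1a lower, with 6.87% and 3.67% of all genes called. The saline and pilocarpine comparisons with the non-irradiated library share that library. The other 4 members (Adra1b, Vipr1, Vipr2 and Tacr1) had too few UMIs in acinar-like nuclei for a ratio.

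In the other classes the calls were as follows. In myoepithelial-like nuclei Adrb1 was higher after saline (5.14% of all genes were higher) and after pilocarpine (4.81%) than without irradiation, and Adra1a was lower after pilocarpine than after saline, at 21.0 against 36.3 CPM (3.49%). In fibroblast-like nuclei Chrm3 and Adra1a were lower after saline (10.8%), Chrm3 and Adrb1 were higher after pilocarpine than after saline (7.91%), and against non-irradiated pilocarpine had Adrb1 higher (5.96%) and Adra1a lower (4.5%). With free RNA subtracted, the last Adrb1 ratio turned to -0.42 on the log2 scale, and thinning brought Adrb1 after pilocarpine against saline to 0.28. Adrb1 in fibroblast-like nuclei stood at 39.2%, 17.5% and 37.8% of its acinar-like level, beside Oit1 at 38.7%, 17.7% and 34.5%. The ratios of pilocarpine to saline there were 1.75 for Adrb1, 2.12 for Oit1 and 1.97 for Prol1. Adra1a in these nuclei stood at 5.84%, 2.94% and 2.73% of its granular duct-like level, beside Egf at 4.31%, 3.21% and 4.27%. The part of RNA from other cells in these calls was not tested. In ionocyte-like nuclei Adra1a was higher after saline than without irradiation (5.36%) and lower after pilocarpine than after saline (6.98%). No member passed the rule in granular duct-like nuclei as clustered here, but those ratios depended on the setting. With each library clustered alone, the log2 ratio of Chrm3 was -0.71 for saline to non-irradiated and 1.25 for pilocarpine to saline, and that of Adrb1 was 1.07 for pilocarpine to saline and 1.13 for pilocarpine to non-irradiated. With free RNA subtracted, Chrm3 gave 1.49 for saline to non-irradiated and 1.12 for pilocarpine to non-irradiated, and Adrb1 gave -0.61 for pilocarpine to saline.

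**Figure D3:**
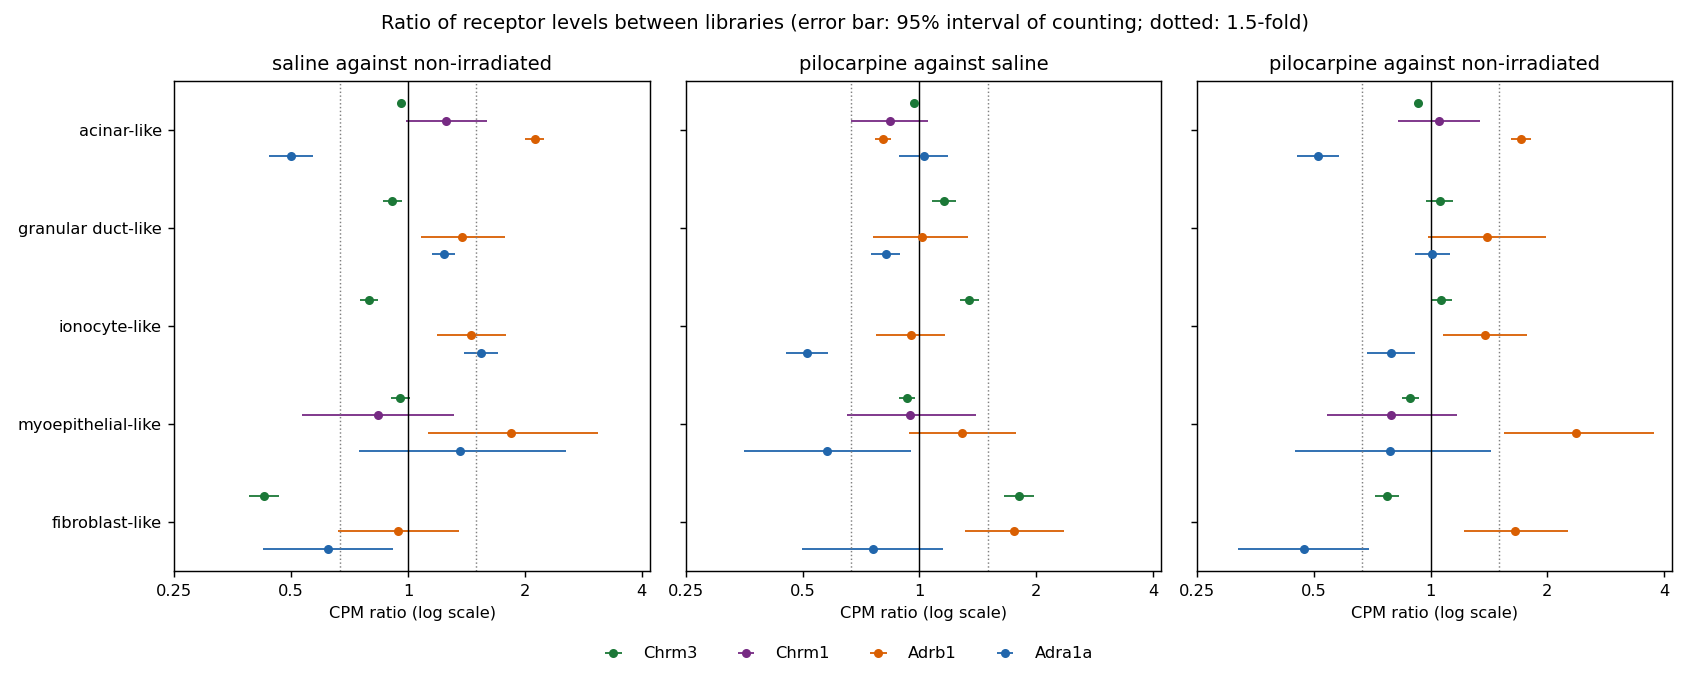
Ratio of CPM between 2 libraries (log axis) for Chrm3, Chrm1, Adrb1 and Adra1a in 5 classes, with 95% counting intervals and dotted lines at 1.5-fold, where both libraries together gave at least 50 UMIs. Adrb1 lay right of 1 in acinar-like nuclei for both irradiated libraries against the non-irradiated one (2.12 and 1.71), and Chrm3 lay close to 1 there (0.929 to 0.971 across the panels).

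**Figure D4:**
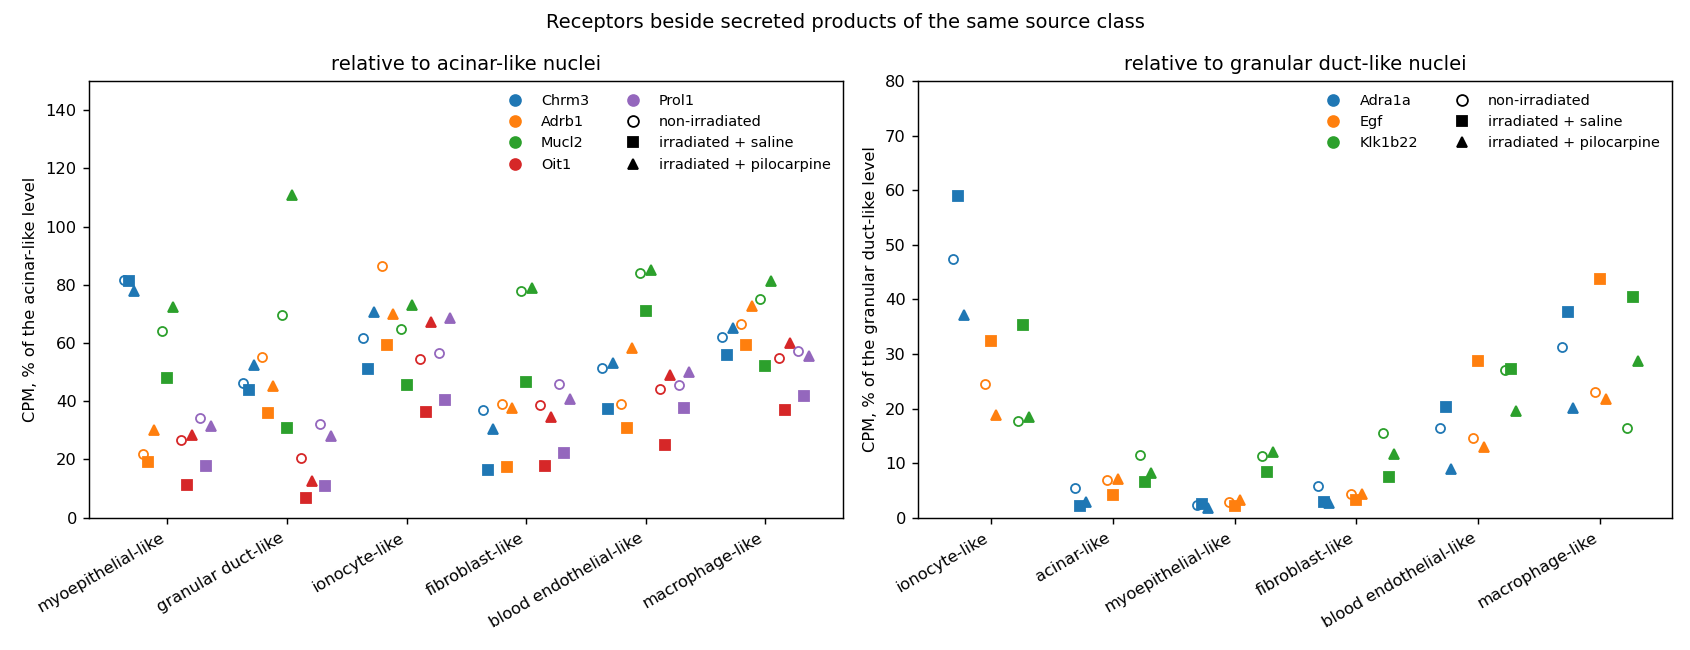
Level of receptors and secreted products in 6 other classes as a percent of the level in acinar-like nuclei (left) or granular duct-like nuclei (right), 1 point per library (open circle non-irradiated, square saline, triangle pilocarpine). Chrm3 in myoepithelial-like nuclei (78.0% to 81.8%) lay above all 3 acinar products, whereas Adra1a in acinar-like nuclei (2.23% to 5.50%) lay at or below Egf and Klk1b22.

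Relatives of the members were measured from a fixed list. Chrm2, the M2 receptor, had 198 of its 323 UMIs in blood endothelial-like nuclei, at 84.2 CPM (58.6 to 117), 191 (154 to 233) and 94.99 (74.0 to 120), with saline above both other libraries. Acinar-like nuclei had 4, 2 and 5 Chrm2 UMIs. Adcyap1r1, the PACAP receptor of the Vipr family, stood at 54.6, 52.5 and 39.5 CPM in fibroblast-like nuclei. Tacr3, a neurokinin receptor related to Tacr1, was at 6.15, 6.80 and 5.76 CPM in acinar-like nuclei. Chrm4 gave 7 UMIs, Adra1d 7 and Chrm5 0. Ligands and transmitter enzymes of the nerves were nearly absent, with Tac1 (substance P) at 23 UMIs in all and Chat at 3.

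Genes of the 2 signalling arms were counted in acinar-like nuclei. After saline against non-irradiated, 5.63% of all genes tested there were called higher and 5.51% lower. For the Gq and phospholipase C arm, 12 of 17 genes were tested, 0 were higher and 1 was lower after saline (Plcb1), with a median log2 ratio of -0.04 against -0.03 over all genes. Plcb4, the phospholipase C isoform with the most UMIs, stood at 3650, 3691 and 3682 CPM, and Gnaq, the Gq subunit itself, at 700, 700 and 622 CPM. For the Gs and cyclic AMP arm, 19 of 24 genes were tested, 2 were higher after saline (Adcy2, an adenylyl cyclase, and Pde3b, a phosphodiesterase) and 1 was lower (Prkar2b, a regulatory subunit of protein kinase A), with a median of -0.06. Pde4d and Pde4b, phosphodiesterases that break down cyclic AMP, stood at 2175, 2376 and 2058 CPM and at 1898, 1667 and 1497 CPM. Adcy2 was among the 10 leading genes of the granular duct-like cluster.

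Receptor desensitization genes showed 0 higher and 1 lower of 9 tested after saline (Arrb2, a beta-arrestin), with a median of -0.14. The shares over all genes in this comparison were again 5.63% higher and 5.51% lower. Grk3, a receptor kinase, stood at 349, 290 and 293 CPM in acinar-like nuclei. Among other secretagogue receptors 5 of 25 were tested, 0 were higher and 1 was lower (Ptger3, a prostaglandin receptor), with a median of -0.14. P2rx4, an ATP-gated channel, stood at 402, 364 and 371 CPM with its highest level in acinar-like nuclei, and P2rx7 at 126, 110 and 115 CPM with its highest in myoepithelial-like nuclei. After pilocarpine against saline, 2.35% of all genes tested were called higher and 1.71% lower. No gene of the Gq, Gs or desensitization lists passed the rule, with medians of 0.02, -0.09 and 0.01 against 0.06 over all genes. Calcrl, 1 of the 4 other receptors tested in that comparison, was lower in acinar-like nuclei, at 2.48 against 4.32 CPM. Its main site was blood endothelial-like nuclei at 416, 375 and 373 CPM. Pilocarpine against non-irradiated gave 0 higher and 0 lower of 12 tested for the Gq arm. For the Gs arm it gave 2 higher and 2 lower of 20 (Rapgef4 joining Prkar2b). Arrb2 was lower among 9 desensitization genes and Ptger3 among 5 other receptors. Over all genes in this comparison 6.87% were called higher and 3.67% lower.

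The genes most like each member were found by Pearson's r of log2(CPM + 1) over 27 points, 9 classes in 3 libraries, among 11784 genes. The points share libraries, depth and acinar background, and r is given as a description. For Chrm3 they were Pde4d (0.91), Larp1b (0.91) and Ttll10 (0.88), for Chrm1 Arhgap42 (0.84), Synj2 (0.82) and Rai2 (0.80), and for Adrb1 Dhrs4 (0.95), Lrrc4 (0.90) and Hnrnpa3 (0.90). For Adra1a they were Tfcp2l1 (0.99), a transcription factor of duct epithelium, Ybx2 (0.97) and Scnn1b (0.97). Adra1b was most like Cdc42bpb (0.82), Best3 (0.79) and Tmem52 (0.77), and Vipr1 most like Lyzl4 (0.89), Grip1 (0.82) and Zfp804b (0.81). Grip1 was also among the 10 leading genes of cluster 13, where Vipr1 was highest.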

How the data were processed

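Counts of UMIs per gene and barcode were deposited by the authors as 3 sparse matrices, made with Cell Ranger 7.0.1 on GRCm38, per the submitters' processing notes. Nuclei were isolated from frozen glands, sorted on DAPI and run on a 3′ droplet kit, per the labels' protocols. Whether introns were counted is not given in the sources used here. The files held 12062, 10161 and 10288 barcodes with 26417958, 29946943 and 34322111 UMIs. A barcode was used as a nucleus if 500 or more genes were detected and mitochondrial UMIs did not exceed 5%. The doublet caller (Scrublet in scanpy 1.11.5) marked 0 nuclei and so did not work here. Doublets remained in the data, and an alternative left out the highest 8% of scores. Between 28 and 33 barcodes were shared by a pair of libraries, 24 to 26 of them among the nuclei used.

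The libraries were clustered together (3000 variable genes, 30 components, 15 neighbours, Leiden resolution 1). A class name needed at least 3 markers at 0.65 or more of the highest cluster's CPM, and no more markers of another class than of its own among the 10 leading genes. The 0.65 was set after seeing the data. Counts were summed per class and library. CPM has an exact Poisson interval and a ratio an exact conditional binomial interval. For subtraction of free RNA, the lowest level among classes of 200 or more nuclei was taken off. A count of 0 is given with the level that 3 counts would give. The ratio rule was tried on simulated Poisson counts. These hold counting error only, so they give no check on differences between libraries, free RNA or clustering. Promoter sequence came from the RefSeq table (6 of 8 members matched). Members and gene lists were chosen with earlier results of these data known. Named genes were the 8 members, the 2 genes with most UMIs of each other list and any past 1.5-fold after pilocarpine against saline, and the 3 genes most like each member with at least 200 UMIs. Genes called in a list, and relatives such as Chrm2, were also named after their values were seen. In all, 11 alternatives were run.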

Additional observations from a re-analysis of the deposited data

Results flagged for a closer look

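Adra1a differed in opposite directions between nucleus classes when saline was set against non-irradiated. Its log2 CPM ratio was 0.62 in ionocyte-like nuclei, -0.999 in acinar-like nuclei and -0.68 in fibroblast-like nuclei. The difference between classes was not tested, since each group has 1 library. In acinar-like and fibroblast-like nuclei its level was 32.1 to 68.1 CPM, against 1165 to 1439 CPM in granular duct-like nuclei.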

How the results depend on the processing

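Under all 11 alternatives Adrb1 in acinar-like nuclei kept its direction, with a log2 ratio of saline to non-irradiated of 1.06 to 1.16 and of pilocarpine to non-irradiated of 0.61 to 0.80. Pilocarpine to saline ran from -0.55 to -0.29. The count of members past 1.5-fold after saline was 2 and became 1 when free RNA was subtracted. Acinar-like nuclei were themselves the lowest class for Adra1a in the saline library, at 32.1 CPM, which sets that level to 0. This setting thus gives no ratio and no check of the Adra1a difference. After pilocarpine, acinar-like nuclei stood at 32.9 CPM, beside 32.1 in fibroblast-like and 21.0 in myoepithelial-like nuclei. The part of RNA from other cells in these low levels was not tested. Chrm3 in acinar-like nuclei ran from -0.10 to 0.34 for saline to non-irradiated, the upper end with free RNA subtracted, and never passed 1.5-fold. For classes other than acinar, all alternatives were chosen after seeing the data. Subtraction turned the Adrb1 ratio of pilocarpine to non-irradiated in fibroblast-like nuclei to -0.42, from 0.72; the cause was not tested. Thinning to 800 UMIs gave shares of 93.9%, 92.2% and 92.5% for Chrm3 and 11.7%, 23.2% and 18.6% for Adrb1 in acinar-like nuclei, 55.4%, 62.9% and 52.8% for Adra1a in granular duct-like nuclei, and 6.52%, 3.79% and 4.47% for Chrm1 in myoepithelial-like nuclei. All 7 members with enough UMIs peaked in the same class in the 3 libraries; this count was 5 with at least 1000 genes per nucleus (without Vipr1 and Vipr2), 5 after thinning (without Vipr2 and without Adrb1, which was then highest in ionocyte-like nuclei of the non-irradiated library), 6 at resolution 0.5 (without Vipr2) and 6 for the mean over nuclei (without Adra1b). No paired analysis was possible because only 1 library was made per group. Depth limits Tacr1, Vipr2 and Adra1b, which have 15, 90 and 224 UMIs.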
